A study of Mus musculus with 6 samples.

Results

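The replication-dependent and linker histone genes were examined in the cortex of mice 14 days after stroke. Members were the protein-coding genes whose older symbol begins with Hist1h to Hist4h or that carry the newer H1f, H2ac, H2bc, H3c and H4c names, and 67 genes met this rule among 24554 summed genes and unmatched rows, of which 20490 were protein-coding symbols. Of the 67 members, 5 were found by the older name only, namely H1f6, H2aw, H2bu2, H4bc24 and H4f16. By the protein they encode, 6 members were linker histones H1, 18 were H2A, 18 were H2B, 12 were H3 and 13 were H4. On the mouse build GRCm38.p6, 54 members lay on chromosome 13 between bases 21715711 and 23934913, 10 on chromosome 3, 2 on chromosome 11 and 1 on chromosome 6.

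The study set 3 libraries from mice given short-chain fatty acids (SCFA, the small acids that gut bacteria make from fibre) against 3 libraries from mice given a control matched for salt. Per the labels' protocols, both were offered in the drinking water without restriction for 4 weeks, starting at an age of 6 to 8 weeks. All mice were male C57BL/6J, were profiled at an age of 15 weeks, and drank 4 antibiotics (vancomycin, ampicillin, neomycin and metronidazole) with 5% sucrose, so the control animals were antibiotic-treated too. The RNA was total RNA from snap-frozen cortex, made into libraries with the Ovation Human FFPE RNA-Seq system, and the sources used here do not give the hemisphere or the distance to the stroke. The design text counts 3 mice per group, and each library was taken as 1 animal.

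Core histones H2A, H2B, H3 and H4 form the protein spool of the nucleosome, and linker histones H1 bind the DNA where it enters and leaves that spool. Cells make most of these proteins during DNA replication from clustered genes that lack introns, and the messages end in a conserved stem-loop in place of a poly(A) tail, bound by the stem-loop binding protein Slbp. Neurons have left the cell cycle, while microglia, astrocytes and other cells can divide in an injured cortex. A total RNA library can hold messages without a poly(A) tail, so the detection of these genes was described first.

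The stem-loop marks most of this family in its sequence. A pattern of 16 letters with the left arm GGNNNT, the loop TNTN and the right arm ANNNCC, where the arms pair with each other, was searched after the stop codon on the coding strand of the GENCODE transcripts of build GRCm38. It was found in 46 of the 67 members, and in 42 of the 44 members with at least 70 annotated bases after the stop codon. Searched over whole transcripts, the same pattern was found in 23 of 21834 other coding genes, or 0.105%. In members it began 21 to 58 bases after the stop codon, with a median of 31. The sequences below show the stem-loop in capitals with 5 flanking bases on each side, for the H1, H2B, H3 and H4 genes with the highest CPM (not scaled for length) among those with a stem-loop and for H2ac8 and H4c11, which come up again in the comparison.
H1f4: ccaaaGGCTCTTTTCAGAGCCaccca
H2ac8: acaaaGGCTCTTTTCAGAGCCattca
H2bc8: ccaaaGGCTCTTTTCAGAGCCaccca
H3c7: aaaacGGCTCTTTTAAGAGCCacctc
H4c4: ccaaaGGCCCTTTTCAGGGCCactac
H4c11: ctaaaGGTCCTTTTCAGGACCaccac

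The capitals of H1f4, H2ac8 and H2bc8 are the same, and 26 members of classes H1, H2A, H2B and H3 carried that core. The core of H4c4 occurred in 7 members, all of class H4, and that of H4c11 was shared with H4c2 only. On GRCm38 these stem-loops lie at chr13:23621782-23621797 on the minus strand for H1f4, chr13:23570668-23570683 on the minus strand for H2ac8 and chr13:23571843-23571858 on the plus strand for H2bc8. Those of H3c7, H4c4 and H4c11 lie on the plus strand at chr13:23544932-23544947, chr13:23581950-23581965 and chr13:21735437-21735452. In 40 of 44 members that have a stem-loop and 1 row in the table, the RefSeq gene ended 4 to 6 bases after it. The GENCODE transcripts of some members run on beyond the stem-loop, with 1209 bases after the stop codon in H1f4 and 822 in H4c4. The transcript of H2bc21, an H2B gene on chromosome 3, runs for 2192 bases after the stop codon and held no match.

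Histone messages were present in this RNA. The counts do not show whether a message ended at the stem-loop or carried a poly(A) tail. At least 1 count was recorded for 58 of 67 members (86.6%), against 79.7% of all protein-coding symbols, and 51 members (76.1%) had counts in every library, against 52.2%. Members are short genes with few isoforms, and 62 of the 67 had a single row. Among protein-coding symbols with a single row, 82.9% had any count and 59.0% had counts in every library. The median member had 475 counts over the 6 libraries, against 293 for protein-coding symbols with 1 row. These shares are a description of the list and were not tested.

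Each library gave between 9275252 and 13862756 counts, of which a single unmatched row took 35.0% to 55.3%. The members took 0.104%, 0.0814% and 0.106% of the counts in SCFA libraries 1 to 3, against 0.108%, 0.0774% and 0.0936% in control libraries 1 to 3. Without the unmatched row the shares were 0.180%, 0.125% and 0.198% in SCFA libraries, against 0.173%, 0.173% and 0.169% in control libraries. Without that row SCFA library 2 was the lowest, and the other 5 libraries lay between 0.169% and 0.198%. At this depth 3 counts in a library stood for 0.207 to 0.346 CPM (the count scaled to a common library size, with TMM factors), which limits what a count of 0 can show and covers counting error only. Control library 2 stood apart over all genes, at 109.2 on the first principal component with the others between −25.8 and −17.7, and SCFA library 2 stood at −51.6 on the second component.

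The members at 0 were H1f6, H2ac18, H2ac19, H2ac24, H2bc22, H2bc23, H3c15, H4bc24 and H4c17. H1f6 encodes the linker histone of the testis, and its coding sequence shares no run of 50 bases with another gene. Each of the other 8 shared at least 79.2% of its 50-base windows with another gene. The coding sequences of H2ac18 and H2ac19 are identical, as are those of H2ac23 and H2ac24, H3c14 and H3c15, H2bc23 and H4bc24, and H4c17 and H4c18. These pairs had 0 and 0, 2 and 0, 1 and 0, 0 and 0, and 0 and 2783 counts, so that only H4c18 of these 10 genes had more than 2. Reads that fall in a sequence shared by 2 genes cannot be assigned to one of them, and the sources used here do not say how the authors' counting treated such reads. A count of 0 for these genes was therefore not read as absence.

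Shared sequence was common in the whole family. Median identity between coding sequences of equal length was 96.4% among H2A genes, 97.2% among H2B, 97.2% among H3 and 93.9% among H4. Of 19 members with at least 90% of their 50-base coding windows also found in another gene, 9 had a total under 15 counts, against 4 of the other 48. The number of rows moved with low totals too, since 4 of the 5 members with several RefSeq rows (H2bc6, H2bc22, H2bc23 and H4bc24) had totals of 0 to 2 counts, and H2bc4 had 1122. Of these 4, H2bc23 and H4bc24 were among the 19 and H2bc6 and H2bc22 among the 48, and the part of each was not tested. The link with shared sequence was not strict, since H4c18 and 9 other members with at least 90% shared had 15 counts or more. At the other end, H2bc18, an H2B gene on chromosome 3, shared no 50-base window with another gene and had 4153 counts. Values of single members with much shared sequence are uncertain for this reason, and among tested members H1f1, H1f5, H2bc18, H2bc21 and H4f16 shared no such window. Overlap with another RefSeq gene adds to the uncertainty of H2aw, H2bu2, H2ac1, H2bc1 and H2bc6, since the strand setting of the counting is not given.

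**Figure D1:**
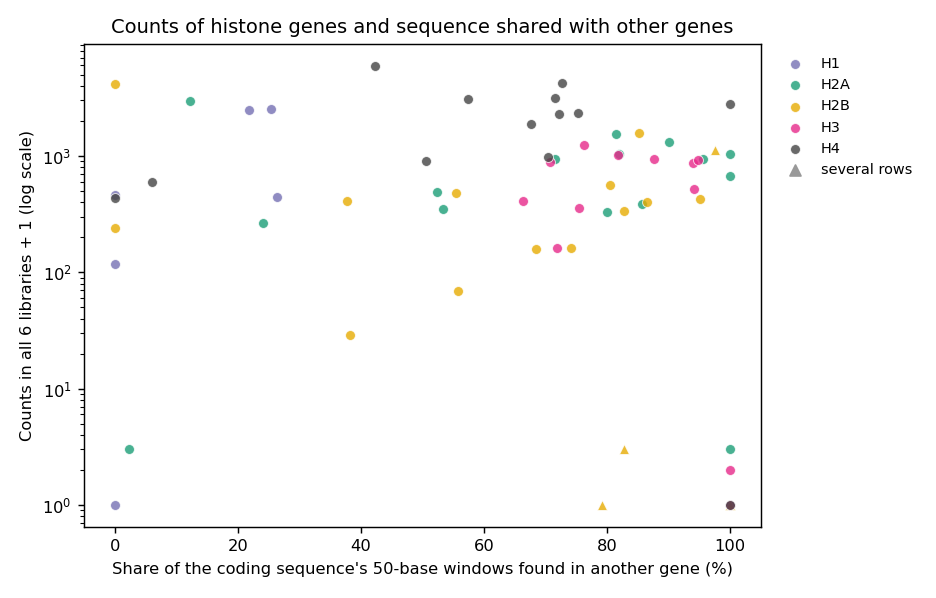
Total counts over the 6 libraries plus 1 (log scale) against the percentage of 50-base windows of the coding sequence found in another gene, 1 point per member coloured by class, with triangles for members with several rows. Of 13 members with a total under 15 counts, most stand at the right edge, while H2bc18 stands at the left edge with 4153 counts.

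H4 genes gave the largest part of the signal. The members' 64506 counts were split into 44.5% for H4, 19.0% for H2A, 15.7% for H2B, 11.4% for H3 and 9.41% for H1. H4c4, one of several genes for the same H4 protein, was the highest member, with 107, 49.3 and 99.8 CPM in SCFA libraries and 91.9, 97.7 and 89.1 CPM in control libraries. Except for SCFA library 2, the libraries were near each other. H4c4 alone held 9.21% of the members' counts, the 12 highest members held 58.9%, and 8 of those 12 were H4 genes.

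Per kilobase of gene, which allows levels to be compared between genes, H4c4 averaged 221.6 CPM per kb over the 6 libraries. H4c8 followed with 145.2, H4c3 with 128.0, H2bc18 with 124.8 and H4c12 with 115.6 CPM per kb. The median of the 51 tested members with 1 row was 23.2 CPM per kb. The lowest of them was H2bc21 at 1.29 CPM per kb over its long annotated transcript. Linker genes were led by H1f2 at 50.8 and H1f4 at 47.1 CPM per kb, and H1f5 was the lowest of the 5 tested linker genes at 2.20 CPM per kb.

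**Figure D2:**
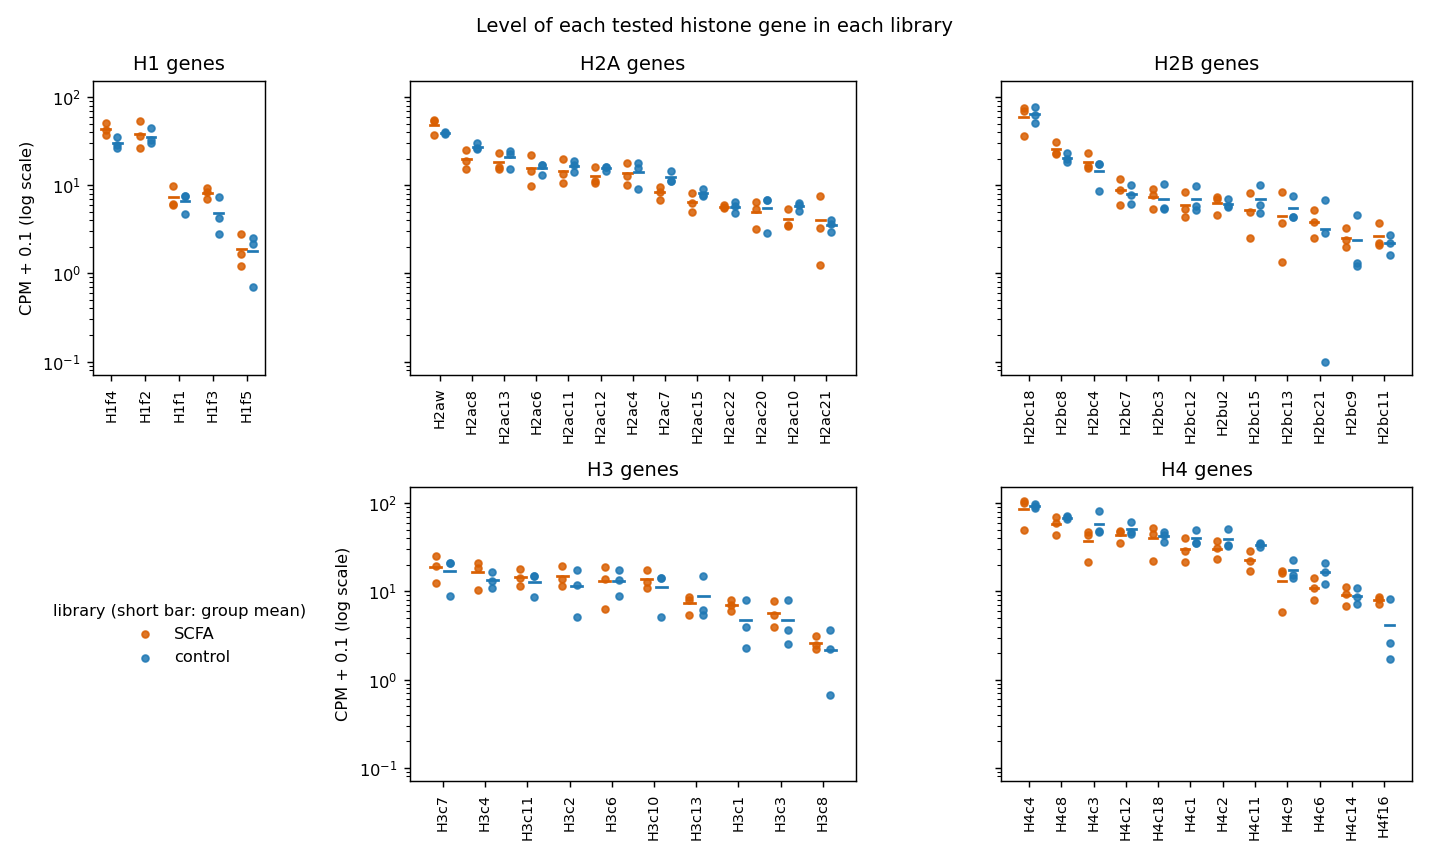
CPM plus 0.1 (log scale) of the 52 tested members in each library, by class and ordered by mean level, with SCFA libraries (orange) left of control libraries (blue) and a short bar at each group mean. H4c4 leads, and the point at the bottom of the H2B panel is H2bc21 in control library 2, which had 0 counts.

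SCFA and control cortices were then compared member by member. The low-count filter kept 52 of the 67 members, and 15 were not tested, of which 9 were at 0, 4 had totals of 1 or 2 counts and 2 had more. The test was edgeR's quasi-likelihood test on counts over 11969 genes, with a call at a Benjamini-Hochberg adjusted p under 0.05. No member was called higher (0 of 52), where 0.00835% of all tested genes were, and none was called lower (0 of 52), where 0.0752% were. In edgeR the lowest adjusted p of a member was 0.864. At an unadjusted p under 0.05, edgeR placed 1 member higher (1.92%, against 2.97% of all tested genes) and 2 lower (3.85%, against 2.79%), and DESeq2 also placed 1 higher and 2 lower. These shares were near the background.

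The median log2 fold change, SCFA over control, was −0.01 over the 52 tested members and 0.01 over all tested genes. It lay above 0 for 25 members (48.1%, against 50.9% of all tested genes) and below 0 for 27 (51.9%, against 49.1%). The members' values ran from −0.65 to 0.94, and their standard errors from 0.187 to 0.943 with a median of 0.367. Differences of the size of such errors could not be detected with 3 animals a group, and a missed threshold does not show that the levels were equal. Summed over all members, the level was 1008, 671 and 1100 CPM in SCFA libraries and 960, 1018 and 975 CPM in control libraries, or 926 ± 226 against 984 ± 30.2 CPM (SD, n = 3 each). The control sums fell inside the SCFA range. The ratio of the means was 0.941, and without SCFA library 2 it was 1.08. In a bulk sample, fewer cells of a type and less RNA per cell cannot be told apart.

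**Figure D3:**
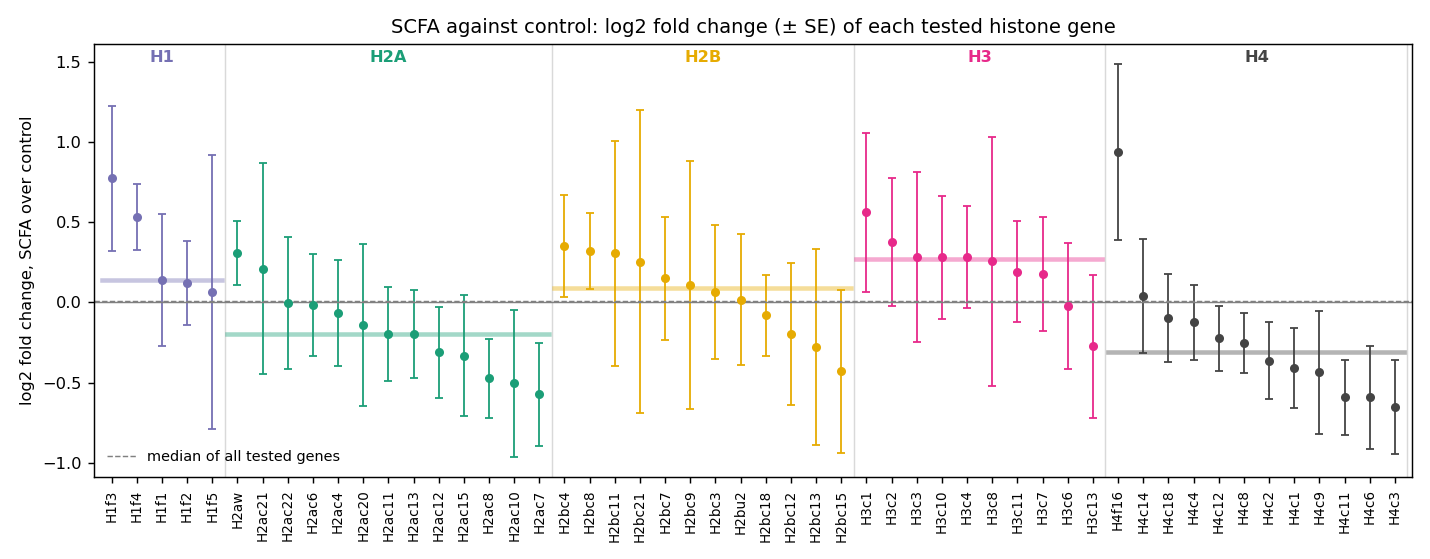
Log2 fold change, SCFA over control, of each tested member with its standard error (edgeR), grouped by class, with a pale bar at the class median and a dashed line at the median of all tested genes (0.01). Values run from −0.65 for H4c3 to 0.94 for H4f16, and with all 6 libraries the H1 genes lie above 0 while 10 of 12 H4 genes lie below.

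Linker histone genes had log2 values above 0, and none passed the test. H1f4 had 42.4, 37.1 and 51.1 CPM in SCFA libraries, against 26.6, 35.3 and 28.4 CPM in control libraries. Every SCFA library lay above every control library, which was so for 1 of 52 members (1.92%) and for 6.42% of all tested genes. Its log2 fold change was 0.53 (SE 0.207), with an edgeR p of 0.0225 and an adjusted p of 0.864. H1f3 had 9.21, 8.20 and 6.79 CPM in SCFA libraries, against 2.68, 4.16 and 7.32 CPM in control libraries, for a log2 fold change of 0.77 (SE 0.451). Its groups overlapped through control library 3.

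H1f2, the other abundant linker gene, had 36.2, 25.96 and 52.9 CPM in SCFA libraries, against 32.0, 44.0 and 29.8 CPM in control libraries. The SCFA libraries spanned the control ones, and the log2 fold change was 0.12 (SE 0.261). The log2 values of H1f1 (0.14, SE 0.410) and H1f5 (0.06, SE 0.855) were small against their errors. All 5 tested H1 genes thus had a log2 value above 0, with a median of 0.14. The signs of H1f1, H1f2 and H1f5 turned when a single library was left out, while those of H1f3 and H1f4 held under every alternative run.

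H2A genes had the opposite balance, with 2 of 13 log2 values above 0 and a median of −0.20. H2ac8 had 25.1, 15.0 and 18.6 CPM in SCFA libraries, against 25.5, 26.1 and 29.7 CPM in control libraries (log2 −0.47, SE 0.246). H2ac7 had 9.52, 6.75 and 8.28 CPM in SCFA libraries, against 11.03, 14.5 and 10.9 CPM in control libraries (log2 −0.57, SE 0.321). In both, every SCFA library lay below every control library, and neither passed the test. The balance of the class was less one-sided without SCFA library 2, control library 1 or control library 3, each of which left 6 of 13 genes above 0. H2aw, the highest H2A gene, had 54.7, 36.8 and 53.4 CPM in SCFA libraries, against 39.2, 39.6 and 38.0 CPM in control libraries (log2 0.31, SE 0.197), with overlapping groups.

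No H2B or H3 gene passed the test, and the groups overlapped in each of them. Of 12 tested H2B genes, 8 had a log2 value above 0, with a median of 0.09. The median turned to −0.11 with 2 of 12 above 0 without SCFA library 3, and to −0.056 without control library 1 and −0.018 without control library 3, each with 5 of 12 above 0. H2bc18 had 69.2, 35.9 and 74.6 CPM in SCFA libraries, against 61.9, 50.7 and 77.1 CPM in control libraries (log2 −0.08, SE 0.253), and the groups overlapped widely. H2bc8 had 22.2, 23.1 and 30.8 CPM in SCFA libraries, against 19.9, 23.0 and 18.2 CPM in control libraries (log2 0.32, SE 0.235). Of 10 tested H3 genes, 8 had a log2 value above 0, with a median of 0.27. Without control library 2, 4 of 10 were above 0 and the median was −0.019, and without SCFA library 3, 6 of 10 were above 0 and the median was 0.036. With SCFA library 2 and control library 2 both left out, 9 of 10 were above 0 and the median was 0.12. H3c7, the H3 gene with the highest CPM when length is not taken into account, had 19.1, 12.5 and 25.4 CPM in SCFA libraries, against 20.9, 8.66 and 20.7 CPM in control libraries, and control library 2 was the lowest. Per kilobase, H3c4 was the highest H3 gene at 29.6 CPM per kb, against 19.8 CPM per kb for H3c7.

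Among H4 genes, 2 of 12 had a log2 value above 0 and the median was −0.31. H4c11 had 22.1, 16.7 and 28.5 CPM in SCFA libraries, against 35.6, 34.1 and 31.6 CPM in control libraries, with no overlap. Its log2 fold change was −0.59 (SE 0.233), with an edgeR p of 0.0250 and an adjusted p of 0.864. H4c3 had 46.6, 21.4 and 44.1 CPM in SCFA libraries, against 47.0, 81.2 and 47.7 CPM in control libraries. The groups did not overlap, but by a small margin outside SCFA library 2 and control library 2, which lay farthest apart (log2 −0.65, SE 0.291, edgeR p of 0.0429, adjusted p of 0.864). With H2ac7 and H2ac8, these were the 4 members (7.69%) with every SCFA library below every control library, a pattern seen in 5.74% of all tested genes.

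H4c8 had 59.1, 43.9 and 69.9 CPM in SCFA libraries, against 69.6, 65.8 and 70.7 CPM in control libraries (log2 −0.26, SE 0.187). H4f16, on chromosome 6 away from the clusters, had 8.48, 7.09 and 8.05 CPM in SCFA libraries, against 8.03, 1.62 and 2.51 CPM in control libraries. Control library 1 was as high as the SCFA libraries, and its log2 fold change of 0.94 (SE 0.548), the highest of any tested member, did not pass the test. Of the remaining named H4 genes, H4c6 had a log2 value of −0.59, H4c1 of −0.41, H4c2 of −0.36, H4c12 of −0.22, H4c4 of −0.12 and H4c18 of −0.10. With SCFA library 2 and control library 2 both left out, 7 of 12 H4 genes lay above 0 and the median was 0.05.

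Single libraries stood apart class by class. SCFA library 2 held the lowest level of 10 of the 12 tested H4 genes (83.3%), where it was lowest for 18.7% of all tested genes. Control library 2 was lowest for 7 of 10 H3 genes, against 30.8% of all tested genes. H4 genes in SCFA library 2 stood at a median of −0.68 on the log2 scale from their mean over the 6 libraries, and H3 genes in control library 2 at −0.93. In control library 2, H4 genes stood at 0.37, so the 2 classes lay on opposite sides there. SCFA library 3 stood apart upwards, with the highest level of 7 of 10 H3 genes and 6 of 12 H2B genes, where it was highest for 12.3% of all tested genes. Its median deviations were 0.56 for H3 and 0.52 for H2B, and all 10 H3 and all 12 H2B genes lay above their mean there. Genes of a class share much of their sequence, as given above, so these counts of genes are not counts of separate measurements.

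**Figure D4:**
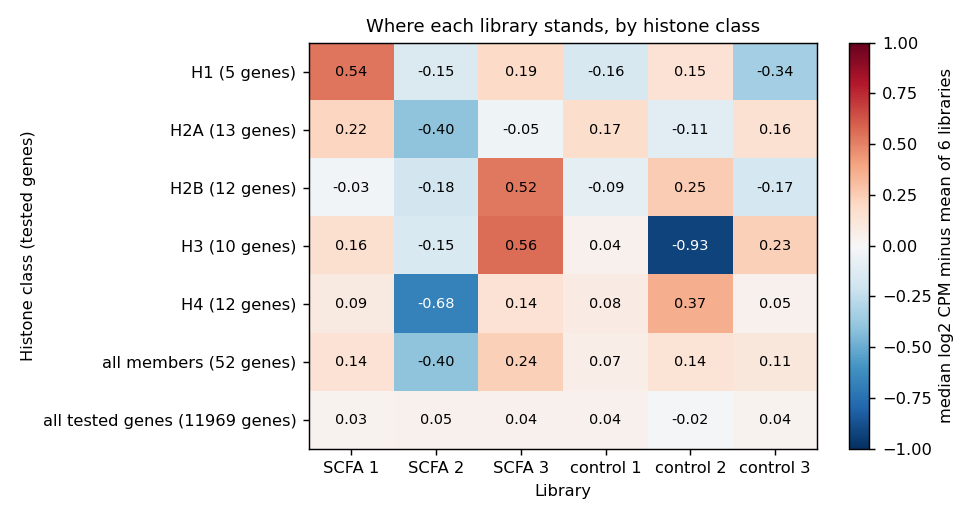
Median over genes of log2 CPM minus the mean of the 6 libraries, for each class (rows) and library (columns, SCFA left), with blue for lower and red for higher. H4 in SCFA library 2 (−0.68), H3 in control library 2 (−0.93) and H3 and H2B in SCFA library 3 (0.56 and 0.52) stand out from values near 0 over all tested genes.

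Shares within a library do not depend on how libraries are scaled. H1 genes held 9.94%, 11.7% and 10.7% of the members' summed CPM in SCFA libraries, against 7.42%, 9.13% and 7.25% in control libraries. H4 genes held 43.5%, 39.3% and 41.8% in SCFA libraries, against 47.0%, 52.3% and 44.7% in control libraries. The groups did not overlap in either class, whereas the shares of H2A, H2B and H3 overlapped. The means were 10.8 ± 0.867% against 7.93 ± 1.04% for H1, and 41.5 ± 2.14% against 48.0 ± 3.92% for H4 (SD, n = 3 each). Shares are parts of the same total, so a lower share of H4 raises those of other classes. The summed levels overlapped in both classes. For H1 they were 100, 78.3 and 118 CPM in SCFA libraries, against 71.2, 92.9 and 70.7 CPM in control libraries. For H4 they were 439, 263 and 460 CPM, against 451, 532 and 436 CPM.

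These shares were singled out after the values had been seen and were not tested. The H1 difference was 2.85 percentage points, and it was 3.01 with SCFA library 2 and control library 2 left out, but 1.26 with H1f4 left out. The H4 difference was −6.47 percentage points, and it was −3.18 with both libraries left out. Markers of some cell types, and of exocrine pancreas, a different tissue, differed between the groups. The log2 value was above 0 for 6 of 6 astrocyte markers, 7 of 7 microglia markers and 4 of 4 tested endothelial markers. It was below 0 for 10 of 10 exocrine pancreas markers. In edgeR 7 of these were called lower, where 9 of all 11969 tested genes (0.0752%) were called lower. Of the 6 endothelial markers, Pecam1 and Tek were at 0 in all libraries, and of the other 3 lists none was. The astrocyte markers summed to 909 to 1419 CPM in SCFA libraries, against 623 to 728 CPM in control libraries, and the microglia markers to 424 to 692 CPM, against 257 to 367 CPM. The endothelial markers summed to 81.4 to 98.3 CPM in SCFA libraries, against 60.3 to 72.9 CPM in control libraries. Exocrine pancreas markers summed to 0.689 to 2.20 CPM in SCFA libraries, against 33.3 to 339 CPM in control libraries. Neuron markers, which check the labelled tissue, summed to 2833 to 3133 CPM in SCFA libraries, against 2496 to 2963 CPM in control libraries. Oligodendrocyte markers, with 3 of 5 tested above 0, summed to 86.7 to 129 CPM in SCFA libraries, against 83.2 to 120 CPM in control libraries. Lymphocyte markers summed to 1.42 to 11.3 against 0.802 to 9.35 CPM, and neutrophil and monocyte markers to 1.19 to 4.27 against 1.15 to 5.43 CPM. The groups overlapped in the sums of neuron, oligodendrocyte, lymphocyte, and neutrophil and monocyte markers. They did not overlap in the astrocyte, microglia, endothelial and exocrine pancreas sums. The part of any of these cell types, or of RNA from exocrine pancreas, in the histone values was not tested.

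**Figure D5:**
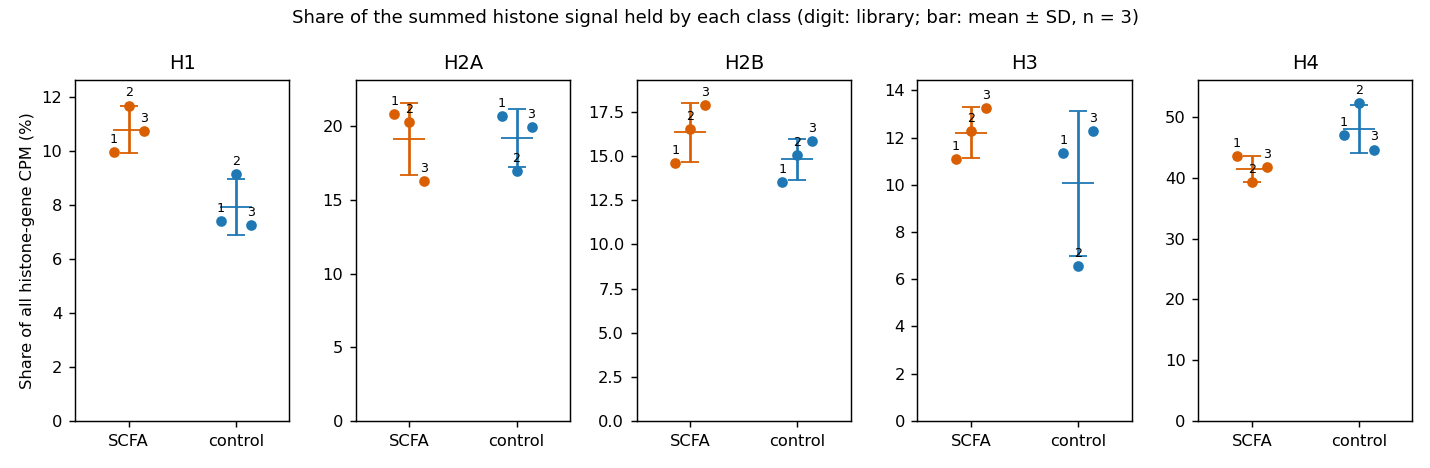
Percentage of the members' summed CPM held by each class in each library, with SCFA left of control, digits for the library and a bar for the mean and SD (n = 3 each). H1 shares are 9.94% to 11.7% in SCFA libraries, above 7.25% to 9.13% in control libraries, and H4 shares lie below the control libraries.

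The classes also differ in the sequence around their start sites. RefSeq promoters of 300 bases (250 before and 50 after the start, GRCm38.p6) were available for 62 members. They were searched on both strands, and each motif was counted separately. CCAAT, the box bound by the factor NF-Y, was found in all 50 promoters of H1, H2A, H2B and H3 genes and in 3 of 12 of H4 genes, against 37.9% of 27025 promoters. AAACACA, a motif known from H1 promoters, was found in 5 of 6 H1 promoters and in 4 of the other 56, against 7.14% of all promoters. TATAAA was found in 35 of 62 (56.5%), against 14.2%. Some counted matches lay after the start, such as the only CCAAT of H3c14 and of H3c15 and the TATAAA of H2ac7 and H4c1. The windows of some neighbouring H2A and H2B genes overlap, such as those of H2ac11 and H2bc11. These are therefore not all separate promoters, and the same box can be counted for both genes. The promoters below are those of the 2 linker genes with the highest log2 values and of the most abundant H4 gene, with these motifs in capitals on either strand.
H1f4: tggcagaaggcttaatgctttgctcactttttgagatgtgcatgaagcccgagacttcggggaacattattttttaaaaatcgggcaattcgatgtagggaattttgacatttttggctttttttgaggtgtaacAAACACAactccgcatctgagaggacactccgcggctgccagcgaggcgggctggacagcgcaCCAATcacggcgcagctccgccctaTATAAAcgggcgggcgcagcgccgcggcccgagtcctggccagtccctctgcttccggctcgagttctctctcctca
H1f3: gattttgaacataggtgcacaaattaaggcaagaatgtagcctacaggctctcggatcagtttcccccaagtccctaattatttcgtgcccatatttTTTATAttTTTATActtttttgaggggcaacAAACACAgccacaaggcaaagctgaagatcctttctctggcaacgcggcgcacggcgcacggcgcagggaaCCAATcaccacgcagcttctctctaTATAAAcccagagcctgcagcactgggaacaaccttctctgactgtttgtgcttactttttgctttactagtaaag
H4c4: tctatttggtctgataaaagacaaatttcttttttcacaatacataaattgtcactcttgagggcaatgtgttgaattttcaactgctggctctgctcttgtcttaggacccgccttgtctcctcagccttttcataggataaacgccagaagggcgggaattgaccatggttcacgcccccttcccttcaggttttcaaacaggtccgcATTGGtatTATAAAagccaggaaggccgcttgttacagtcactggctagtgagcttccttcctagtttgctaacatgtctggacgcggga

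These are chr13:23622509-23622808 on the minus strand for H1f4, chr13:23554782-23555081 on the plus strand for H1f3 and chr13:23581318-23581617 on the plus strand for H4c4, each printed in the direction of its gene. In H1f4 the motif AAACACA began 115 bases before the start, CCAAT began 52 bases before it and TATAAA 27 bases before it. In H1f3 the distances, in the same order, were 122, 51 and 26 bases. H1f3 has 2 more TATAAA matches on the other strand. The H4c4 promoter held CCAAT on the other strand and TATAAA, 40 and 32 bases before the start, and no AAACACA. Such matches describe the letters and are not sites of binding.

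The machinery that makes and handles histones was measured alongside. Of 88 genes in 4 lists, 52 were tested and 0 were called in either direction by edgeR. Fewer genes with several rows were tested, at 5 of 34, against 47 of 54 with 1 row, and the cause was not tested. Slbp, which binds the stem-loop, has 3 rows and stood at 0 in all 6 libraries. Casp8ap2, Lsm10 and H2az1, with 2 rows each, had too few counts to test. Of 24 genes listed for 3′ end processing and histone transcription, 11 were tested, 2 with a log2 value above 0 and a median of −0.15. The list and these values include Ern1 (log2 −0.33), which is not known for either process. The sums of this list were 345, 361 and 324 CPM in SCFA libraries, against 341, 406 and 313 CPM in control libraries, with overlap. Npat, the coactivator that marks histone gene clusters, had 37.6, 45.9 and 47.3 CPM in SCFA libraries, against 47.9, 57.3 and 40.6 CPM in control libraries (log2 −0.16, SE 0.192). Lsm11, a part of the U7 particle that directs the cut, had a log2 value of −0.15, Hinfp, an activator of H4 genes, of −0.43, and Cstf2t of 0.27.

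Replacement and variant histones can be made outside replication. Of 11 such genes 8 were tested, 7 of them with a log2 value above 0, and the median was 0.29. Summed, they gave 258, 229 and 243 CPM in SCFA libraries, against 210, 186 and 201 CPM in control libraries, with no overlap between the groups. In each of the 8 tested genes taken alone, the groups overlapped. H3f3b, a gene for the replacement histone H3.3, had 65.7, 61.5 and 56.7 CPM in SCFA libraries, against 49.2, 36.7 and 57.4 CPM in control libraries. Its log2 fold change was 0.36 (SE 0.192), and H3f3a, the other H3.3 gene, had 0.26 (SE 0.205). Values were 0.21 for H1f0, the replacement linker histone of resting cells, 0.65 for H1f10 and 0.32 for H2ax, the variant phosphorylated at DNA breaks. None passed the test.

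Of 23 histone chaperones 18 were tested, 8 of them with a log2 value above 0, and the median was −0.044. Summed, the list gave 1563, 1484 and 1418 CPM in SCFA libraries, against 1633, 1733 and 1585 CPM in control libraries, with every SCFA library below every control library. This separation rested on Atrx, the gene with the highest level in the list. Without Atrx the sums of the groups overlapped. Atrx, a remodeller that works with Daxx in placing H3.3, had 589, 508 and 539 CPM in SCFA libraries, against 695, 740 and 641 CPM in control libraries. The groups did not overlap, but the log2 fold change of −0.34 (SE 0.128) had an edgeR p of 0.0185 and an adjusted p of 0.864. Rbbp7, a histone-binding chaperone, had a log2 value of 0.24. Of 30 genes for S phase and proliferation 15 were tested, 10 of them above 0, with a median of 0.19. The sums of this list were 92.1, 92.1 and 91.4 CPM in SCFA libraries, against 86.2, 89.9 and 94.5 CPM in control libraries, with overlap.

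Mki67, a marker of cycling cells, had 3.56, 4.61 and 4.85 CPM in SCFA libraries, against 2.11, 0.924 and 1.40 CPM in control libraries. Every SCFA library lay above every control library, and the log2 fold change was 1.54 (SE 0.634), with an edgeR p of 0.0304 and an adjusted p of 0.864. Top2a, the topoisomerase of dividing cells, had 0.523, 3.44 and 1.57 CPM in SCFA libraries, against 0.892, 0.115 and 0 CPM in control libraries, with overlap (log2 2.37, SE 1.25). Pcna, the sliding clamp of the replication fork, had a log2 value of −0.29 (SE 0.325). The astrocyte, microglia and endothelial sums were also higher in the SCFA libraries, as given above, and their part in the values of Mki67, the chaperones and the replacement histones was not tested. Mki67 and Top2a stood at 4.85 CPM or less in every library, while H4c4 stood at 49.3 CPM or more.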

How the data were processed

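RNA sequencing of 6 cortex libraries (SCFA 3, control 3) was used. The authors deposited raw read counts per RefSeq transcript in 1 table of 34755 rows. They named CASAVA 1.8.2, featureCounts and the build mm10, per the submitters' processing notes. The sources used here give no aligner, no strand setting and no rule for reads shared between genes. For this report 34419 rows (99.03%) were matched to symbols through a RefSeq table of GRCm38.p6 and summed per symbol. The comparison used edgeR 4.0.16 under R 4.3.3 (filterByExpr with a minimum count of 10 and a minimum total of 15, TMM, quasi-likelihood F test, two-sided, Benjamini-Hochberg over 11969 genes), and the standard error is the log2 fold change divided by the square root of F. The code was tested on simulated data.

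The members and lists were chosen with earlier results of these data known. Members named are the 12 with the highest mean CPM, any past the threshold, up to 5 per direction with the smallest p, the highest of each class and every linker histone. Related genes named are Slbp, Npat, Casp8ap2, Lsm10, Lsm11, H2az1, H2ax, H3f3a, H3f3b, H1f0, Mki67, Top2a and Pcna, and the 2 tested genes with the smallest p in each list. Members named for a count of 0, for shared sequence or for their level per kb were chosen after their values were seen. Alternatives were other scalings (DESeq2 1.42.0 size factors, upper quartile, total counts), other filters, DESeq2, limma-voom (limma 3.58.1), the replicate number as a block, structural RNA removed, unsummed rows, an adjusted p under 0.1, each library left out in turn, and SCFA 2 and control 2 left out. Libraries with the same replicate number did not deviate together (correlations of −0.00206, 0.0101 and −0.00525), so the numbers were not taken as pairs. Whether libraries came from separate animals rests on the design text. Each p-value sets the difference between the groups against the spread between these libraries. Library totals are in the report, and the number of animals limits the precision. Stem-loops and coding sequences come from GENCODE transcripts of GRCm38, and promoters from RefSeq.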

Additional observations from a re-analysis of the deposited data

How the results depend on the processing

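No member was called higher or lower under any of the 17 alternative settings or at an adjusted p under 0.1, and the lowest adjusted p of a member was 0.236 (H4c3, edgeR with no filter), 0.296 (H1f4, SCFA 2 and control 2 left out) and 0.605 (H1f4, DESeq2). With the replicate number as a block, 0 and 0 members were called and their median log2 was −0.06. The median ran from −0.12 (without SCFA 3) to 0.21 (without SCFA 2), and was 0.13 with total counts, where the median of all genes was 0.18. The ratio of summed CPM ran from 0.853 to 1.09. With total counts 5 of 13 H2A genes and 4 of 12 H4 genes lay above 0, and without SCFA 2 the H4 median was −0.084 with 4 of 12 above 0. Of 595 values of named genes under alternatives, 571 kept their sign and 24 turned, in 12 genes, and the cause was not tested. With total counts, the log2 values were 0.040 for H2bc18, 0.012 for H4c18, 0.019 for H4c4, 0.082 for Lsm11 and 0.041 for Npat. With SCFA 2 and control 2 both left out they were 0.050 for H2bc18, 0.072 for H4c12, 0.099 for H4c18, 0.023 for H4c2, 0.19 for H4c4, 0.096 for Lsm11 and 0.063 for Pcna. Leaving out 1 library gave −0.13 to 0.27 for H1f1, −0.18 to 0.35 for H1f2, −0.35 to 0.43 for H1f5, −0.27 to 0.19 for H2bc18, −0.13 to 0.42 for H3c7, −0.35 to 0.21 for H4c18, −0.31 to 0.16 for H4c4 and −0.30 to 0.11 for Lsm11. H1f1 and H1f5 turned without SCFA 1 or control 3, H2bc18 without SCFA 2 or control 3, H4c4 and H4c18 without SCFA 2, H1f2 without SCFA 3, H3c7 without SCFA 3 or control 2, and Lsm11 without control 2. The alternatives for class shares were chosen after seeing the data: leaving out 1 library gave H1 differences of 2.41 to 3.45 and H4 differences of −8.13 to −4.30 percentage points.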

Other observations

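Among the untested members, H2bc1, an H2B gene known from the testis, had 7, 7 and 11 counts in SCFA libraries, against 3, 0 and 0 in control libraries, and it was singled out after its values were seen. With no filter its log2 fold change was 2.82 (SE 2.05), with an edgeR p of 0.17 and an adjusted p of 0.860. The germ cell markers Prm2, Tnp1 and Dazl stood at 0 in all 6 libraries, and the 6 markers summed to at most 0.628 CPM in SCFA libraries and at most 0.201 CPM in control libraries. H2bc14 had 0, 3 and 51 counts in SCFA libraries, against 1, 11 and 2 in control libraries, so that SCFA library 3 alone held most of its 68 counts. The pseudogene H2af-ps2, which the rule left out, had 47, 25 and 68 counts in SCFA libraries, against 17, 35 and 45 in control libraries.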
